A study of Mus musculus with 6 samples.

Results

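To examine the integrated stress response and the unfolded protein response after loss of Zfp335, a zinc finger transcription factor, 10 genes were taken by name from a table of bulk RNA-seq counts of regulatory T cells (Tregs). They were Atf4, Atf5, Ddit3, Trib3, Chac1, Asns, Psat1, Phgdh, Hspa5 and Xbp1, which make up 10 of the 32285 rows, and all 10 passed the filter on low counts. The genes were named for their place in these responses, with earlier results of these data known. The shares of all genes tested are therefore given for scale and not as an independent test of this list. In brief, KO Tregs contained more RNA of 7 of the 10 genes, Atf4, Atf5, Ddit3, Chac1, Asns, Hspa5 and Xbp1, and 0 were called lower, against 12.0% higher and 12.1% lower of all genes tested. Without WT replicate 2 the count was 4, with Atf5, Asns and Chac1 not called. The increases were 18.7% to 42.4%, except for the weakly expressed Chac1, whose fold change was 3.27. Trib3, Psat1 and Phgdh did not pass the test.

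The Tregs were CD4+CD25+ cells sorted from spleens of C57BL/6 mice, with 3 WT and 3 KO libraries. KO denotes ERCre Zfp335fl/fl mice (in the labels, ERCre+Zfp335f/f), in which a Cre recombinase fused to a modified estrogen receptor deletes the floxed gene once tamoxifen is given. The study's methods describe tamoxifen-treated ERCre mice as the WT group, whereas in the labels the controls are wild-type littermates, with no mention of tamoxifen. By those methods, mice were 6 weeks old, were given 100 µL of tamoxifen (10 mg/mL) 3 times and were analyzed on day 7. If the controls lacked Cre or tamoxifen, that difference coincided with genotype in every library and cannot be told apart from it. ERCre is not restricted to Tregs, so other cells of these mice could lose Zfp335 as well. Whether each library came from 1 mouse or from a pool is not given in the sources used here, and the p-values measure only the spread between these libraries.

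Cells that face amino acid shortage, misfolded protein in the endoplasmic reticulum (ER), viral RNA or mitochondrial faults phosphorylate the translation factor eIF2, which slows protein synthesis but favors translation of Atf4 mRNA. ATF4 then acts with other basic leucine zipper (bZIP) factors to induce genes of amino acid synthesis and uptake, together with feedback genes. In the ER, the sensors PERK, IRE1 and ATF6 detect misfolded protein, and the IRE1 and ATF6 branches induce chaperones such as HSPA5 through XBP1 and ATF6. Because ATF4 is regulated largely at translation and XBP1 by splicing, gene counts show the RNA of these regulators and not the amount of active protein.

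DNA elements that these factors are known to bind were searched in the promoters of the 10 genes, and the promoters with a match are shown here for reference beside the values. RefSeq windows on GRCm38.p6 were used, from 250 bases before to 50 bases after the annotated start, and all 10 genes had one. The C/EBP-ATF response element was searched as TGATGNAA and the ER stress element as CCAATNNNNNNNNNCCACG, on both strands, with N for any base. Of all 27025 genes with a window, 4.51% held the first element and 0.137% held the second. The first was found in 3 of the 10 genes, Chac1, Trib3 and Asns, and the second was found in Hspa5 alone of the 10, so no match of one overlapped a match of the other. Each promoter is printed 5′ to 3′ along the strand of its gene with the match in capitals. For Chac1 and Trib3 the match is on the opposite strand and its reverse complement, TTNCATCA, is seen. The windows are chr2:119350992-119351291 (plus strand) for Chac1, chr2:152344011-152344310 (minus strand) for Trib3, chr6:7693160-7693459 (minus strand) for Asns and chr2:34771840-34772139 (plus strand) for Hspa5.
Chac1: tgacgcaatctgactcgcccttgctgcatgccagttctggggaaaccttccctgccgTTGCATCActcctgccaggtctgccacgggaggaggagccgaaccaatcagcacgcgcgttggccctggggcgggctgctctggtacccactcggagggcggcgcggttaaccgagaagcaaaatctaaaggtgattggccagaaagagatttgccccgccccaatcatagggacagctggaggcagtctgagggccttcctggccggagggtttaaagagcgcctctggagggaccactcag
Trib3: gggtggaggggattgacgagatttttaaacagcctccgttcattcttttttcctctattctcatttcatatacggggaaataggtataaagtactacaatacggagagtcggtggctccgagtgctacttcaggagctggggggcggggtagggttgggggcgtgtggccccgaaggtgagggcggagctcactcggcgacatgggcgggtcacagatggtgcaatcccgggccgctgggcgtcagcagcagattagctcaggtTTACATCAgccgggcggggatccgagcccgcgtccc
Asns: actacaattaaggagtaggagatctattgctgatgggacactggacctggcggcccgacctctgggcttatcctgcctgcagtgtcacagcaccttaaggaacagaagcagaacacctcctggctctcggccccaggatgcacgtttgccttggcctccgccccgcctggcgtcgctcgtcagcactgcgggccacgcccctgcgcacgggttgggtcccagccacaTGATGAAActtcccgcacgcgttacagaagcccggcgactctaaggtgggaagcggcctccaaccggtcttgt
Hspa5: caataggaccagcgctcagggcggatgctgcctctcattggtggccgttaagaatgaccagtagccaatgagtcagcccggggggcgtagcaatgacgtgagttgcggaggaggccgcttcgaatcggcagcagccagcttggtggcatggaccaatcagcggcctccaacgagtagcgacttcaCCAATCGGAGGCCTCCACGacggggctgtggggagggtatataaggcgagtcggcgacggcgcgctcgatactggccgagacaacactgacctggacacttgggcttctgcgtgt
The match began 193 bases before the annotated start in Chac1, 23 bases before it in Asns and 65 bases before it in Hspa5. In Trib3 it began 15 bases after the RefSeq start. A match describes these letters and does not show that a factor bound there.

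Library totals were between 133283969 and 209041812 counts. Levels are given in CPM, in which each count is divided by the TMM-scaled size of its library. The deleted gene, Zfp335, was present at 124.4, 120.7 and 115.2 CPM in the WT libraries and at 15.0, 14.3 and 15.1 CPM in the KO libraries, a log2 fold change of -3.02 (SE, the standard error, 0.046, adjusted p = 1.2e-13). Unless another test is named, adjusted p-values come from the quasi-likelihood test of edgeR and were adjusted over all 17307 genes tested by the Benjamini-Hochberg method, and a gene is called at an adjusted p under 0.05. Of these genes, 12.0% were called higher and 12.1% lower in KO (24.1% in all), and the median log2 fold change of all genes was -0.0042. The sorted cells expressed the Treg marker Foxp3 at 1136 ± 17.4 CPM (SD) over the 3 WT and 1052 ± 9.24 CPM over the 3 KO libraries (log2 fold change -0.11, adjusted p = 0.0163). Of 6 Treg and T cell markers, whose sum was 3353 to 3393 CPM in WT and 3434 to 3491 CPM in KO, 1 (Ctla4) was called higher and 2 lower. RNA of other cell types also differed between the groups. The summed level of 6 B cell markers was 57.9 to 63.1 CPM in WT and 27.7 to 29.1 CPM in KO, and all 6 were called lower. For 6 myeloid markers the sum was 43.0 to 51.0 CPM in WT and 20.3 to 22.1 CPM in KO, with 5 of 6 called lower. For 6 red cell markers it was 36.6 to 43.5 CPM in WT and 1.81 to 2.31 CPM in KO, with all 6 called lower. For 5 CD8 T and NK cell markers it was 26.6 to 27.3 and 23.3 to 25.2 CPM, with 1 called lower. For 6 plasma cell markers, of which 5 were tested, it was 172.9 to 187.1 and 196.7 to 198.6 CPM, with 2 called lower and Irf4, which Tregs also use, called higher. Irf4 made up most of this sum, with means of 130.5 CPM in WT and 154.3 CPM in KO. Jchain, 1 of the 2 lower markers, averaged 11.4 CPM in WT and 4.21 CPM in KO. Xist, the RNA of the inactive X chromosome, averaged 0.272 ± 0.132 CPM over the 3 WT and 134.6 ± 10.4 CPM over the 3 KO libraries (SD). Every WT library was low and every KO library high, the pattern of male against female cells. By this RNA, sex coincided with genotype in all 6 libraries, and their effects cannot be told apart in any difference between the groups. The part of these differences in the results for the stress genes was not tested. In bulk RNA, fewer cells that express a gene and less of its RNA per cell cannot be told apart.

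The transcription factors of the response were examined first. Atf4, which encodes the central bZIP factor of the integrated stress response (chr15:80255184-80257541 of GRCm38, plus strand), was present at 304.4, 292.1 and 310.0 CPM in the WT libraries and at 394.7, 392.8 and 386.0 CPM in the KO libraries. Every KO library was above every WT library, and the gap between the groups was wider than the spread within either. The log2 fold change was 0.37 (SE 0.033, adjusted p = 2.94e-06), an increase of 29.5%.

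Ddit3 encodes CHOP, a bZIP factor induced downstream of ATF4 that is known for its role in death of stressed cells (chr10:127290774-127296288, plus strand). It was detected at 24.4, 21.7 and 23.0 CPM in WT and at 32.1, 32.2 and 32.2 CPM in KO. The groups did not overlap, and the KO libraries differed from each other by less than the WT libraries did. This corresponded to a log2 fold change of 0.48 (SE 0.051, adjusted p = 1.45e-05), an increase of 39.7%. The exons of Ddit3 overlap those of Mars, a tRNA synthetase gene on the other strand, by 68 bases. Mars averaged 69.7 CPM in WT and 77.8 CPM in KO and was itself called higher (log2 fold change 0.16, adjusted p = 0.0192). Whether strand was used in counting is not given in the sources used here. A second row of the table, for another gene annotated as Ddit3 within the same locus, was at 0 in all 6 libraries.

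Atf5 encodes a bZIP factor related to ATF4 that is also known for the mitochondrial unfolded protein response (chr7:44812256-44816658, minus strand). Its level was 6.68, 6.08 and 5.30 CPM in WT and 7.17, 7.82 and 8.02 CPM in KO. All KO libraries lay above all WT libraries, though KO replicate 1 was closer to WT replicate 1 than to either of the other KO libraries. The log2 fold change was 0.34 (SE 0.091, adjusted p = 0.0156). The call was lost without WT replicate 2 (0.34, adjusted p = 0.0608), KO replicate 2 (0.33, adjusted p = 0.0614) or KO replicate 3 (0.31, adjusted p = 0.0692). Exons of Il4i1 and Nup62 on the other strand overlap Atf5 by 82 bases, and neither gene passed the test (log2 fold changes 0.046 and -0.016).

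Trib3 and Chac1 are both induced downstream of ATF4 and CHOP. Trib3, which encodes a pseudokinase that binds ATF4 and dampens its activity (chr2:152337422-152344032, minus strand), was present at 5.36, 5.23 and 5.001 CPM in WT and at 7.12, 6.67 and 5.35 CPM in KO. KO replicates 1 and 2 were above the WT libraries, whereas KO replicate 3 was within the WT range. The log2 fold change of 0.29 (SE 0.106) had an adjusted p of 0.0649 and a 95% interval of 0.083 to 0.50. The gene passed the test without KO replicate 3 (0.40, adjusted p = 0.0112) and with the replicate number as a block (0.30, adjusted p = 0.0321).

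Chac1 encodes an enzyme that degrades glutathione (chr2:119351229-119354381, plus strand). It was counted 18, 21 and 12 times in the WT libraries and 94, 42 and 55 times in the KO libraries, or 0.0989, 0.110 and 0.0892 CPM against 0.527, 0.203 and 0.286 CPM. The lowest KO library was above the highest WT library, and KO replicate 1 stood above the other 2 KO libraries. The log2 fold change of 1.71 (SE 0.508, adjusted p = 0.0265) was the largest of the 10 genes and had a 95% interval from 0.71 to 2.70. Without KO replicate 1 it was 1.27 (adjusted p = 0.119), and the call was also lost without WT replicate 2 (1.79, adjusted p = 0.0842), WT replicate 3 (1.65, adjusted p = 0.0518) or KO replicate 3 (1.80, adjusted p = 0.0522). Of the 10 genes, Chac1 alone also passed the study's cutoffs of 1.5-fold, P under 0.05 and adjusted P under 0.1, by which 2.58% of all genes tested were higher and 4.37% lower in KO.

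**Figure D1:**
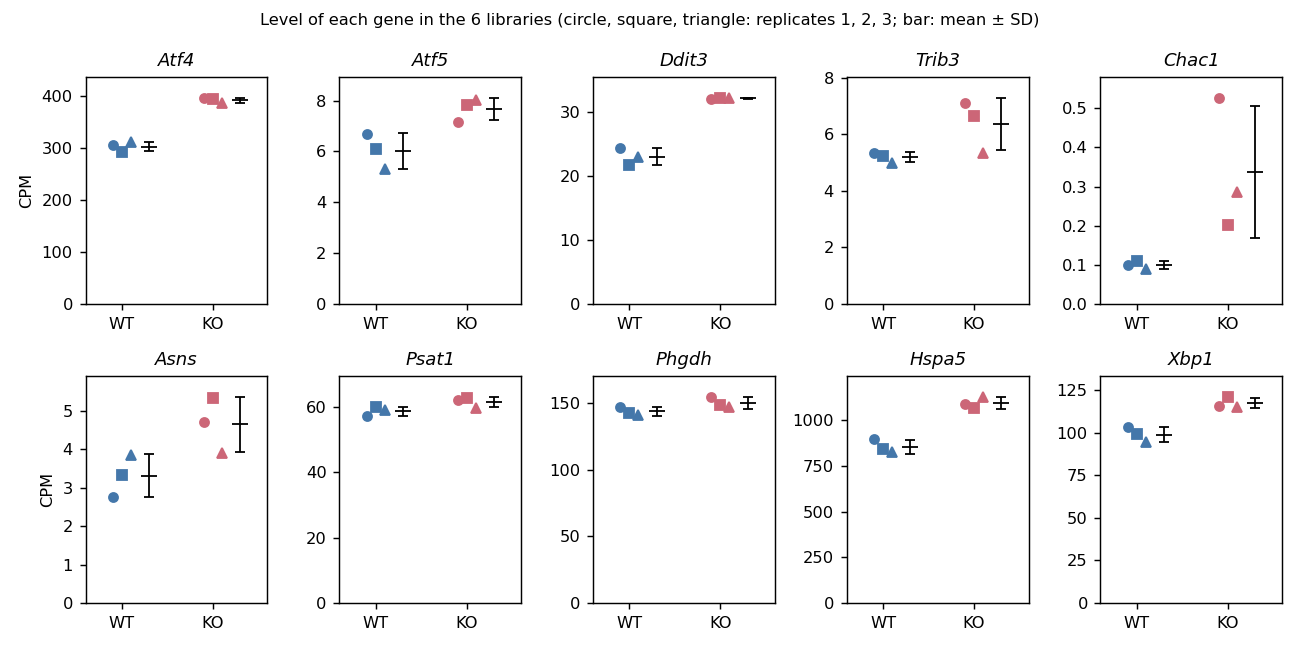
CPM of the 10 genes in each of the 3 WT (blue) and 3 KO (red) libraries, on linear axes that start at 0, with the mean and SD of each group in black. For Atf4, Ddit3, Hspa5 and Xbp1 the groups are well apart, whereas KO replicate 3 of Trib3, at 5.35 CPM, lies in the WT range and the groups of Psat1 and Phgdh overlap.

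The members that make amino acids differed among themselves. Asns, which encodes asparagine synthetase (chr6:7675169-7693254, minus strand), was present at 2.75, 3.34 and 3.86 CPM in WT and at 4.72, 5.33 and 3.89 CPM in KO. The groups did not overlap, but KO replicate 3 and WT replicate 3 were nearly equal. This gave a log2 fold change of 0.51 (SE 0.140, adjusted p = 0.0177), with a 95% interval from 0.24 to 0.78. The call was lost without WT replicate 1 (0.39, adjusted p = 0.0513), WT replicate 2 (0.53, adjusted p = 0.0632), KO replicate 1 (0.50, adjusted p = 0.0591) or KO replicate 2 (0.39, adjusted p = 0.0995).

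Phgdh and Psat1 encode the first and second enzymes of serine synthesis. Phgdh (chr3:98313170-98339990, minus strand) was at 147.4, 142.9 and 141.4 CPM in WT and at 154.9, 148.7 and 146.9 CPM in KO. Psat1 (chr19:15904678-15947337, minus strand) was at 57.2, 59.9 and 59.1 CPM in WT and at 62.2, 62.7 and 59.7 CPM in KO. The groups overlapped in both genes. For Phgdh the log2 fold change was 0.061 (SE 0.035, adjusted p = 0.241), and its 95% interval ran from -0.0073 to 0.13. For Psat1 it was 0.068 (SE 0.039, adjusted p = 0.242), with an interval from -0.0084 to 0.14. Psph, the third enzyme of the pathway, also missed the threshold (log2 fold change -0.028, adjusted p = 0.814). Of the 50-base stretches of Phgdh, 47.8% occur in transcripts of other annotated genes, chiefly its pseudogenes, so its counts are less certain than those of the other members.

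The last pair belongs to the ER. Hspa5 encodes BiP, the main HSP70 chaperone of the ER lumen (chr2:34771970-34777547, plus strand). It was present at 898, 842 and 824 CPM in WT and at 1086, 1066 and 1128 CPM in KO. The groups were separated by more than the range within either group. KO exceeded WT by a log2 fold change of 0.36 (SE 0.038, adjusted p = 1.78e-05), an increase of 28.0%.

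Xbp1 encodes the factor whose mRNA is spliced by IRE1 (chr11:5520659-5525893, plus strand). It was detected at 103.3, 98.9 and 94.4 CPM in WT and at 115.8, 121.1 and 115.4 CPM in KO. The groups did not overlap. KO exceeded WT by a log2 fold change of 0.25 (SE 0.040, adjusted p = 0.000569), an increase of 18.7% and the smallest among the 7 genes called. The counts do not separate the spliced from the unspliced form.

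Taken over the 10 genes, 7 were called higher and 0 lower in KO, against 12.0% and 12.1% of all genes tested, and their median log2 fold change was 0.35. The same 7 genes had every KO library above every WT library, which was the case for 19.3% of all genes tested, while 19.1% had every KO library below every WT library. In the exact two-sided permutation test over the libraries, these 7 genes reached p = 0.1, the smallest that 3 against 3 libraries allow, and Trib3, Psat1 and Phgdh had p = 0.2. Any gene whose groups do not overlap reaches the smallest value, so this test repeats the non-overlap and adds nothing to it. Atf4, Ddit3, Hspa5 and Xbp1 kept their call in all 6 fits that each left out 1 library, with log2 fold changes of 0.35 to 0.39 for Atf4, 0.44 to 0.53 for Ddit3, 0.33 to 0.39 for Hspa5 and 0.22 to 0.28 for Xbp1. Without WT replicate 2, 4 of the 10 genes were called higher, and 5 or 6 were called without another single library.

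**Figure D2:**
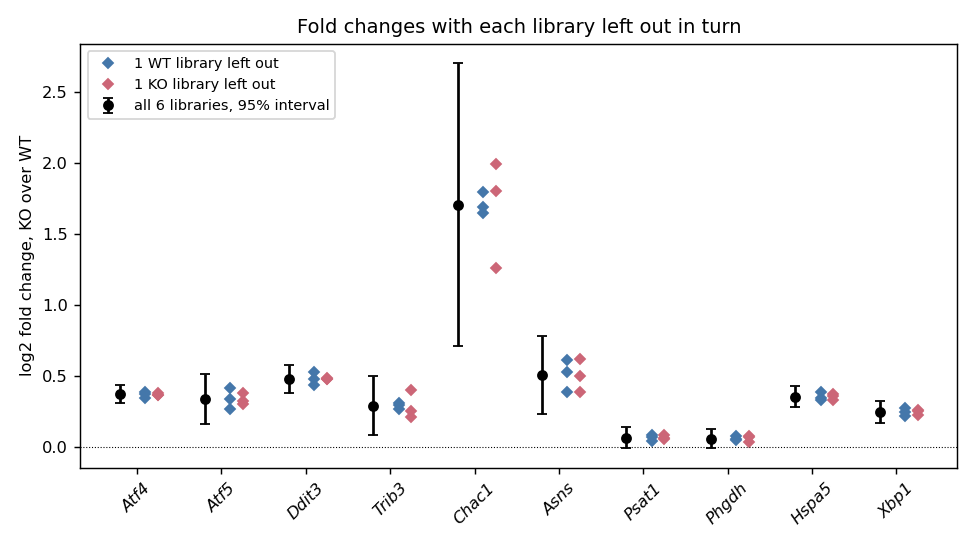
Log2 fold change (KO over WT) of the 10 genes from all 6 libraries (black, with 95% interval) and from the 6 fits without 1 WT library (blue) or 1 KO library (red). All points are above 0. Chac1 has the widest interval, 0.71 to 2.70, and is at 1.27 without KO replicate 1.

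To compare genes with each other, CPM was divided by the exon length of each gene in kilobases. In WT, Hspa5 was highest at 202 ± 9.19 CPM per kb (SD, n = 3), and Atf4 came next at 128 ± 3.88 CPM per kb. Phgdh followed at 57.9, Xbp1 at 30.4, Psat1 at 13.8, Ddit3 at 13.4, Atf5 at 3.02, Trib3 at 2.45, Asns at 1.21 and Chac1 at 0.0607 CPM per kb. In this order only the neighbors Psat1 and Ddit3 had overlapping ranges. In KO, Ddit3 was above Psat1, at 18.8 ± 0.041 against 14.5 ± 0.373 CPM per kb, and the rest of the order was as in WT with no overlap between neighbors. Thus the chaperone and Atf4 were abundant in both groups, whereas Asns and Chac1 were the least expressed members in both.

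**Figure D3:**
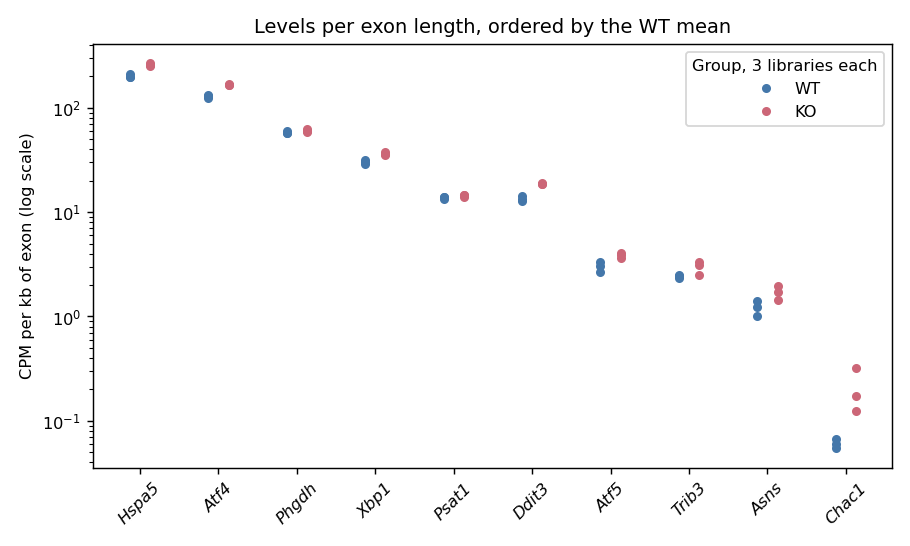
CPM per kilobase of exon (log axis) of the 10 genes in the 3 WT (blue) and 3 KO (red) libraries, ordered by the WT mean. Levels run from 202 CPM per kb for Hspa5 to 0.0607 CPM per kb for Chac1 in WT, and Ddit3 and Psat1 change places in KO.

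Other genes of the same responses were then grouped by role, and they differed by group. Among 11 sensors and their processing enzymes, whose median log2 fold change was -0.047, Eif2ak3, which encodes the ER kinase PERK, was higher in KO (43.3 ± 0.990 against 54.7 ± 2.28 CPM, SD, n = 3 each, log2 fold change 0.34, adjusted p = 8.53e-05). Eif2ak2, which encodes the double-stranded RNA kinase PKR, was lower (-0.19, adjusted p = 0.0112), but not called without WT replicate 2 or KO replicate 2, when 0 of the 11 were lower, and without WT replicate 1 a further gene of the 11 was higher, making 2. The other 9, with the genes of the kinases GCN2 and HRI, IRE1, ATF6, OMA1 and DELE1 among them, did not pass the test. In each direction 1 of 11 is a share near the 12.0% and 12.1% of all genes tested. The median was -0.019 without WT replicate 3, -0.026 without KO replicate 1, -0.030 without WT replicate 1, -0.025 with the GC trend removed and -0.078 with library size as the only scaling, and 2 of the 11 were lower under that scaling and with upper-quartile factors.

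Of 10 genes of eIF2 and its regulators, 3 were called higher and 0 lower, against 12.0% and 12.1% of all genes tested. The median log2 fold change was 0.061. Ppp1r15a encodes GADD34, which directs dephosphorylation of eIF2 and is induced by ATF4 and CHOP as feedback. It rose from 739 ± 21.1 to 1013 ± 28.8 CPM (SD, n = 3 each, log2 fold change 0.46, adjusted p = 7.26e-07). Its constitutive counterpart Ppp1r15b had a smaller increase (0.16, adjusted p = 0.0126), as did Eif2b3, a subunit of the eIF2 exchange factor (0.24, adjusted p = 0.0413). The count of 3 was 1 without KO replicate 2 or KO replicate 3, and 2 genes were lower without WT replicate 1. With library size as the only scaling and with upper-quartile factors 2 were higher and 2 lower, with medians of 0.030 and 0.046, and with a minimum of 1 CPM 3 were higher and 2 lower. The median was 0.040 without KO replicate 1.

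Other bZIP factors and feedback genes numbered 14, of which 12 were tested, 5 were higher and 2 were lower. Nfil3, a bZIP repressor, rose from 59.5 ± 1.22 to 107 ± 2.04 CPM (SD, n = 3 each, log2 fold change 0.85, adjusted p = 2.75e-09). Sesn2, an inhibitor of mTORC1 signaling, rose by 0.78 on the log2 scale (adjusted p = 2.74e-06), Atf3, a bZIP factor downstream of ATF4, by 0.67 (adjusted p = 8.58e-06) and the death receptor gene Tnfrsf10b by 0.66 (adjusted p = 5.36e-06). Cebpb was the other gene that was higher (0.24). The lower genes were Ddit4, another mTORC1 inhibitor (-0.37, adjusted p = 0.000118), and Cebpg, which encodes a bZIP partner of ATF4 (-0.35, adjusted p = 0.00089). The median log2 fold change of the list was 0.22. Of all genes tested 12.0% were higher, and 2 lower genes of 12 are a share near the 12.1% that were lower.

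Of 9 amino acid transport genes, 7 were called higher and 1 lower, with a median log2 fold change of 0.51. Of all genes tested 12.0% were higher, and 1 lower gene of 9 is a share near the 12.1% that were lower. Slc7a5 and Slc3a2 encode the 2 chains of the large neutral amino acid transporter. Slc7a5 rose from 93.3 ± 7.23 to 140.0 ± 1.19 CPM (SD, n = 3 each, log2 fold change 0.58, adjusted p = 1.39e-06), and Slc3a2 had a log2 fold change of 0.51 (adjusted p = 6.45e-07). The increases were larger for the neutral amino acid transporter Slc1a4 (1.09, adjusted p = 7.89e-05), the cationic amino acid transporter Slc7a3 (0.84, adjusted p = 0.00533) and the glycine transporter Slc6a9 (0.80, adjusted p = 0.0199). These 3 genes had 0.483 to 1.42 CPM in WT and 1.15 to 2.96 CPM in KO. Slc7a11, which encodes the cystine transporter and is a target of ATF4 and of NRF2, went the other way, from 0.319, 0.388 and 0.424 CPM in WT to 0.0617, 0.130 and 0.140 CPM in KO (log2 fold change -1.72, adjusted p = 0.00725). The groups did not overlap for any of these 6 genes. Of all genes tested, 19.3% had every KO library above and 19.1% every KO library below every WT library.

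Of 12 genes of amino acid and one-carbon synthesis, 5 apart from Aldh1l2 were called higher and 0 lower. Of all genes tested, 12.0% were higher and 12.1% lower. The median log2 fold change of the list, with Aldh1l2 included, was 0.24. Aldh1l2, a mitochondrial folate enzyme, was counted 6, 13 and 0 times in WT and 41, 68 and 42 times in KO. It passed the filter on low counts only through the KO libraries, so its call is not counted as support, and the other called genes of the list numbered 5. Pycr1 of proline synthesis rose by 0.71 on the log2 scale (adjusted p = 0.0253), the aspartate aminotransferase gene Got1 by 0.35 (adjusted p = 4.45e-05) and the alanine aminotransferase gene Gpt2 by 0.31 (adjusted p = 0.0344). Mthfd2, a mitochondrial folate enzyme and an ATF4 target, had 55.8 ± 1.79 and 56.3 ± 0.439 CPM (SD, n = 3 each, log2 fold change 0.014, adjusted p = 0.845). Counted with Aldh1l2, 6 genes of the list were higher, and 3 without WT replicate 2, WT replicate 3, KO replicate 1 or KO replicate 3. The median of the list was 0.14 without WT replicate 1, 0.15 without KO replicate 3, 0.13 with counts divided by 4 and 0.097 with a minimum of 1 CPM.

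For 13 tRNA synthetase and tRNA export genes that ATF4 is known to induce, the median log2 fold change was 0.046. Of these, 3 were higher (Aars 0.20, Mars 0.16 and Yars 0.16) and Wars was lower (-0.13). The shares over all genes tested were 12.0% higher and 12.1% lower. The higher genes numbered 5 without WT replicate 1 and 1 without KO replicate 1 or KO replicate 2, and no gene was lower without WT replicate 2 or any 1 of the KO libraries. With library size as the only scaling 1 was higher and 2 were lower, with a median of 0.015.

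Of 17 ER chaperones and folding enzymes other than Hspa5, 2 were higher and 2 lower, shares near the 12.0% and 12.1% of all genes tested, and the median log2 fold change was 0.0038, which turned to -0.011 with upper-quartile factors and to -0.027 with library size as the only scaling. Dnajb9, a co-chaperone of BiP and a target of spliced XBP1, was present at 61.1, 63.7 and 72.4 CPM in WT and at 92.7, 89.9 and 98.2 CPM in KO (log2 fold change 0.51, adjusted p = 3.01e-05). Creld2 was higher by 0.16 (adjusted p = 0.0469), and Sdf2l1 (-0.21, adjusted p = 0.00743) and the disulfide isomerase gene Pdia3 (-0.11, adjusted p = 0.0324) were lower. These counts were 1 higher gene without WT replicate 2 or any 1 of the KO libraries and 1 lower gene without WT replicate 2, WT replicate 3 or any 1 of the KO libraries. The abundant chaperone Hsp90b1, which often moves with Hspa5, was at 356, 380 and 388 CPM in WT and at 355, 349 and 363 CPM in KO (log2 fold change -0.075, adjusted p = 0.174). Of 10 genes of ER-associated degradation, Herpud1 (0.23, adjusted p = 0.00276) and Derl1 (0.16, adjusted p = 0.00306) were higher. Derl2 was lower (-0.15, adjusted p = 0.024), but not without WT replicate 2, KO replicate 1 or KO replicate 2. These counts of 2 higher and 1 lower stand beside the 12.0% and 12.1% of all genes tested. The median of this list was 0.014, or -0.00094 with upper-quartile factors and -0.017 with library size as the only scaling.

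**Figure D4:**
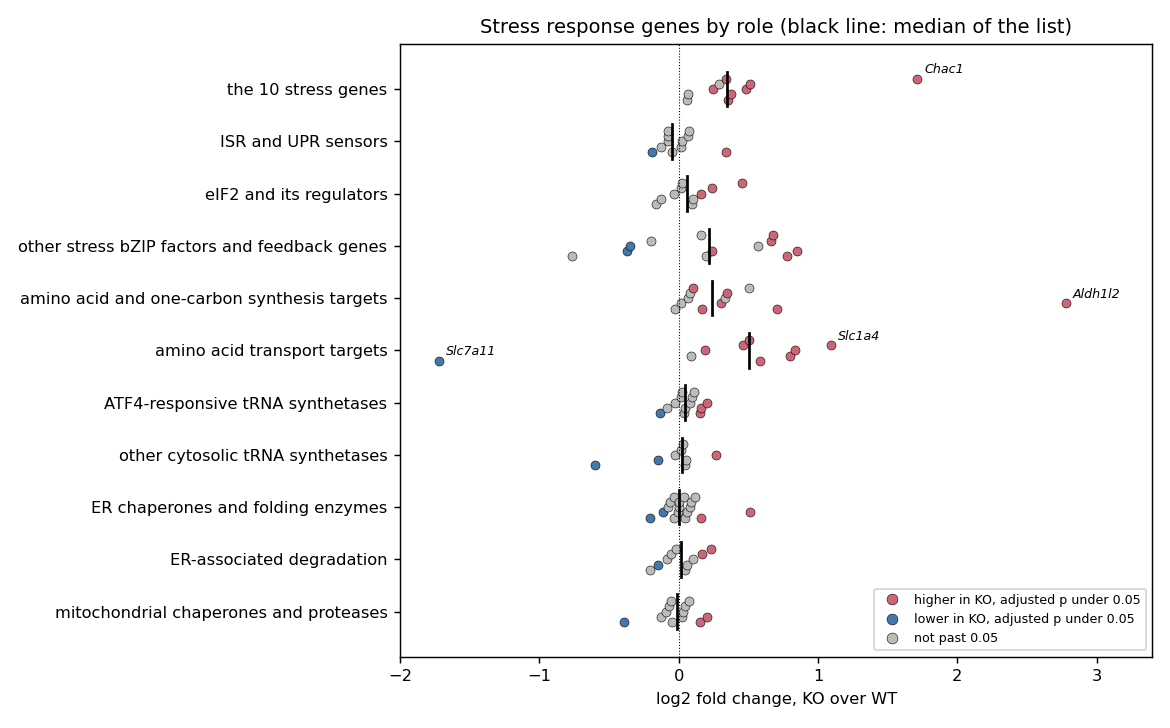
Log2 fold change (KO over WT) of each tested gene of the 10 stress genes and of 10 lists of related genes. Red and blue points passed an adjusted p under 0.05 as higher and lower in KO, and the black line is the median of a list. The medians of the 10 genes (0.35) and of amino acid transport (0.51) are to the right, while those of ER chaperones (0.0038) and sensors (-0.047) are near 0.

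The promoter elements were also looked up in these lists. Of the 12380 genes tested that had a window, 344 (2.78%) held the C/EBP-ATF response element. It was held by 52 of the 1644 genes called higher in KO (3.16%) and by 51 of the 1566 genes called lower (3.26%). It was found in 5 of 8 tRNA synthetase genes with a window, in 2 of 6 transport genes, in 2 of 10 synthesis genes and in 3 of 10 other bZIP and feedback genes. Examples are shown with 10 bases on each side of the element, 5′ to 3′ on the strand that reads TGATGNAA, with the element in capitals. They are Slc1a4 (chr11:20332700-20332727, plus strand), Pycr1 (chr11:120643834-120643861, minus strand), Atf3 (chr1:191183426-191183453, plus strand) and Got1 (chr19:43524690-43524717, plus strand), which were higher in KO, and both elements of Slc7a11 (chr3:50443662-50443689, minus strand and chr3:50443643-50443670, plus strand), which was lower.
Slc1a4: aggctggagaTGATGCAAcgcaggaggc
Pycr1: gccctgtgtaTGATGCAAtgcacaaggc
Atf3: gcggacttggTGATGCAAgtgcgagaag
Got1: gaggcttgtaTGATGCAAccaatgcaat
Slc7a11: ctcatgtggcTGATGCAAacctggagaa
Slc7a11: ggctgcatgaTGATGCAAattctccagg
The same element, TGATGCAA, thus stood near the start of genes that were higher and of a gene that was lower in KO. Genes of these lists that did not pass the test held the C/EBP-ATF response element too. They were Gars, Iars and Tars of the tRNA synthetase genes and Jdp2 and Nupr1 of the bZIP and feedback genes. The ER stress element was held by 24 (0.194%) of the 12380 genes tested that had a window. Among genes called higher 6 of 1644 (0.365%) held it, and among genes called lower 2 of 1566 (0.128%). It was found in 6 of 12 ER chaperone genes with a window, and 1 of these 6, Creld2, was called higher. The share of all genes tested called higher was 12.0%. Hsp90b1, Calr, Canx, Dnajc3 and Pdia6 also held it and did not pass the test. In ER-associated degradation 2 of 9 genes with a window held it, and neither was called.

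Finally, the genes most like Chac1, the member with the largest fold change, were looked for over the 6 libraries among genes whose log2 CPM averaged 1 or more. By Euclidean distance between log2 CPM values, each minus the mean of the gene, the nearest were Ramp3 (0.926), Dusp8 (0.954) and Dusp10 (0.991). Dusp10, which encodes a phosphatase of stress-activated MAP kinases, was present at 118.5, 102.0 and 105.1 CPM in WT and at 304.0, 301.7 and 301.2 CPM in KO (log2 fold change 1.48, adjusted p = 3.54e-10). Dusp8, a phosphatase of the same family, rose from 1.38 ± 0.046 to 3.51 ± 0.163 CPM (SD, n = 3 each, log2 fold change 1.34). Ramp3, a receptor accessory protein gene, rose from 5.65 ± 0.492 to 14.4 ± 0.877 CPM (SD, n = 3 each, log2 fold change 1.34). All 3 genes were, like Chac1, highest in KO replicate 1, but the spread of Chac1 within KO was wider than theirs. Because they were picked by closeness to Chac1 over these same libraries, their rise in KO follows from the choice. It is not separate evidence, and the pattern of Chac1 itself rests on 12 to 94 counts per library.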

How the data were processed

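Bulk RNA-seq of splenic CD4+CD25+ Tregs was analyzed for 3 WT and 3 KO libraries, grouped by the sample titles. The values are raw counts, which the authors deposited as 1 table with 32285 rows (40 are repeats of a symbol) and did not normalize. The submitters' processing notes name HISAT2, DESeq2 and the mouse build mm10; the counting tool and its strand setting are not given in the sources used here. The protocol names no molecular identifiers, so the totals may overstate the number of independent fragments.

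From these counts, genes were tested in R 4.3.3 with the quasi-likelihood test of edgeR 4.0.16 (newer method, robust fit), TMM scaling (factors 0.987 to 1.014) and filterByExpr, which kept 17307 genes. Standard errors were derived from the F statistic and 95% intervals from the standard errors. For permutation tests, log2 CPM had a prior count of 2. The fit was tested on simulated counts with known changes.

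The 10 genes and all lists were chosen with earlier results of these data known. Genes named by rule were the 10 members and Zfp335, up to 4 called genes with the largest change in each list, Foxp3, Jchain and Hba-a1, Xist and the 3 genes nearest to Chac1. Mean levels in WT and KO were 11.4 and 4.21 CPM for Jchain and 21.9 and 0.999 CPM for Hba-a1. A further gene of this rule is not reported here. Outside this rule, Irf4, Ctla4, Psph, Mthfd2, Cebpb, Ddit4, Cebpg, Slc7a5, Slc3a2, Il4i1, Nup62, the genes of named sensors and the chaperone genes with an ER stress element were named after their values were seen. The same holds for Gars, Iars, Tars, Jdp2 and Nupr1. Mars1 is listed as Mars in the table. Gene positions and exon lengths are from the GENCODE annotation of GRCm38 (the build also called mm10), and promoters are RefSeq windows on GRCm38.p6, found for 12380 genes tested (71.5%).

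Alternatives were RLE, upper-quartile and no scaling factors, no filter, a minimum of 1 CPM in 3 libraries, DESeq2 1.42.0, limma-voom (limma 3.58.1), edgeR's legacy method, the replicate number as a block, removal of mitochondrial, ribosomal protein, haemoglobin and immunoglobulin genes, leaving out each library, and the study's cutoffs. Counts divided by 4 and removal of the GC trend were chosen after seeing the data. All columns were used.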

Additional observations from a re-analysis of the deposited data

How the results depend on the processing

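Atf4, Ddit3, Hspa5 and Xbp1 were called higher in KO under all 18 alternatives run for each of them, with log2 fold changes from 0.34 to 0.39, 0.44 to 0.53, 0.32 to 0.39 and 0.22 to 0.28, and Zfp335 stayed between -3.06 and -3.00. Psat1 (0.037 to 0.089) and Phgdh (0.030 to 0.077) missed the threshold under all 18. The other members changed their call when libraries were left out. Over the 6 such fits Atf5 ranged from 0.27 to 0.42, Asns from 0.39 to 0.62, Chac1 from 1.27 to 1.99 and Trib3 from 0.21 to 0.40. Members called higher numbered 4 to 6 in these fits, genes called higher 1341 to 2495 and genes called lower 1399 to 2501. With the study's cutoffs, which are not among the 18 alternatives above, 1 member (Chac1) passed, and 446 genes were higher and 757 lower. With library size as the only scaling, the share of called genes that were higher was 38.6% in place of 49.9%, the median log2 fold change of all genes was -0.035, and 7 members were still called higher. Chac1 fell below the minimum of 1 CPM, and was filtered out with counts divided by 4, so that 6 members were called higher under each. Of 864 values for the lists and markers under alternatives, 743 stayed within the spread or within 1.5 times the count and 121 did not. The cause was not tested. Chac1, with 12 to 94 counts per library, had the widest interval among the members.

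With the replicate number as a block, Trib3 was called higher (0.30, adjusted p = 0.0321), 8 members were higher and 4227 genes were called in place of 4170, and no other member changed its call. Across genes, the deviations of the WT and KO libraries with the same number correlated at 0.028, 0.0082 and 0.033, and the replicates were not treated as pairs.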

Other observations

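The chaperones and proteases of mitochondria, which the mitochondrial branch of the unfolded protein response is known to induce, were counted in the same way. Of 12 such genes, 2 were higher and 1 lower in KO, shares near the 12.0% and 12.1% of all genes tested, and the median log2 fold change was -0.011. With library size as the only scaling and with upper-quartile factors 1 was higher and 2 were lower. Trap1, the mitochondrial HSP90, fell from 120 ± 4.07 to 92.0 ± 0.863 CPM (SD, n = 3 each, log2 fold change -0.39, edgeR adjusted p = 4.2e-06). The protease genes Htra2 (0.20, edgeR adjusted p = 0.00323) and Lonp1 (0.15, edgeR adjusted p = 0.0248) were higher. Without any 1 of the libraries other than WT replicate 1, only 1 of the 12 genes was higher, and without WT replicate 1, 3 were lower. The chaperonin gene Hspd1, named after its values were seen, was at 198, 218 and 220 CPM in WT and at 203, 199 and 206 CPM in KO, so the groups overlapped.

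Among 8 cytosolic tRNA synthetases that are not counted among the targets of ATF4, Vars was higher (0.27, edgeR adjusted p = 0.000448), and Farsb (-0.60, edgeR adjusted p = 7.99e-06) and Rars (-0.15, edgeR adjusted p = 0.0127) were lower, with a median log2 fold change of 0.023, or -0.0082 with library size as the only scaling. Farsb encodes 1 chain of the phenylalanine enzyme, and it was present at 36.0, 41.4 and 42.4 CPM in WT and at 26.4, 26.5 and 26.2 CPM in KO. Farsa, which encodes the other chain, averaged 87.9 ± 5.26 and 91.1 ± 1.18 CPM in WT and KO (SD, n = 3 each, log2 fold change 0.051, edgeR adjusted p = 0.446). Of all genes tested, 12.0% were higher and 12.1% lower, and 1 higher gene of 8 is a share near the former. Without WT replicate 1, 2 of the 8 were higher, and without KO replicate 2, 1 was lower.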
